A study of Mus musculus with 20 samples.

Results

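The Wnt pathway feedback genes studied here are Axin2, Nkd1, Sp5, Rnf43, Znrf3, Lgr5, Lef1, Tcf7 and Ctnnb1, followed in Hepa1-6 mouse hepatoma cells over 10 h with and without TGFβ1. Members were all probe sets that the array platform's annotation maps to 1 of these symbols alone, which gave 17 of the 45037 probe sets and 8 of the 18193 genes; Tcf7 was not analysed here. Each gene was represented by its brightest probe set, the one whose log2 values averaged highest across the 20 arrays. Hepa1-6 is an established line from a liver tumour of a C57L mouse, and its Wnt signalling state is not described in the labels. All cells were seeded in serum, washed, and kept in medium depleted of growth factors for 4 h before the start. The treated groups then received 1 ng/ml TGFβ1 and were taken at 0, 1, 3, 6 and 10 h, and the untreated groups were taken at the same 5 times with no addition. Each of the 10 groups held 2 arrays from biological duplicates, 20 arrays in all. Treated 0 h cells are described as equivalent to untreated 0 h cells.

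In canonical Wnt signalling, a Wnt ligand bound to a Frizzled receptor and an LRP coreceptor inactivates the complex that marks β-catenin for destruction, and β-catenin then switches on target genes together with TCF/LEF factors. Several targets feed back on the pathway: Axin2 is a scaffold of the destruction complex, Nkd1 binds Dishevelled and dampens the signal, Sp5 is a repressor, and Rnf43 and Znrf3 are ubiquitin ligases that remove Frizzled from the membrane. Lgr5 binds R-spondins and so keeps these ligases in check, Lef1 is a TCF/LEF factor that is itself a target, and Ctnnb1 encodes β-catenin. In liver the pathway is known for setting the gene programme of hepatocytes around the central vein, and β-catenin mutations are common in hepatocellular tumours.

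The arrays resembled each other closely: the correlation of duplicates over all probe sets ran from 0.9958 to 0.9971, and array medians lay between 5.15 and 5.21 on the log2 scale. Of the measured hepatocyte markers, 8 of 8 lay at or above the array median. Krt18, Krt8, Afp and Alb were bright, at means of 13.41, 12.83, 12.78 and 12.01. Hnf4a, Apoa2, Apoa1 and Ttr lay much nearer the array medians, at 6.57, 6.43, 6.32 and 5.65. The 3 cholangiocyte markers lay above the array median as well, with Krt7 at 10.24, Epcam at 9.94 and Krt19 at 6.78. Of the other liver cell types, 1 of 4 endothelial, 2 of 4 stellate and 3 of 4 macrophage and leukocyte markers lay at or above it. The endothelial gene Kdr was at 5.36 and Pecam1 at 3.65, and the macrophage gene Csf1r at 6.63 and the leukocyte gene Ptprc at 3.31. The early TGFβ target Smad7, an inhibitory SMAD, differed by 2.45, 1.49, 1.10 and 0.42 between treated and untreated cells at 1, 3, 6 and 10 h (log2). At 0 h, 0 of 8 members and 0% of all genes passed limma's test after adjustment, and 0 of 8 members had an unadjusted p under 0.05.

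Under TGFβ1 these genes went different ways, and most of the differences lay at 3 h. At that time Sp5 was 1.95-fold, Rnf43 1.35-fold and Axin2 1.24-fold lower in treated than in untreated cells, while Lef1 was 1.45-fold, Nkd1 1.32-fold, Ctnnb1 1.2-fold and Lgr5 1.19-fold higher. Only Axin2 and Nkd1 had passed the test at 1 h. By 6 h Axin2, Znrf3 and Ctnnb1 were higher in treated cells, and by 10 h Ctnnb1 alone passed.

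In counts, 1 member was higher and 1 lower at 1 h, when 2.24% of all genes passed in either direction, 1.91% higher and 0.324% lower (limma, adjusted p under 0.05 over all genes). At 3 h 4 were higher and 3 lower of 8, against 6.73% and 8.55% of all genes, or 15.3% in either direction. Among genes at or above the median level, which all members but Lef1 reached, 27.1% passed at 3 h. At 6 h 3 of 8 passed, all higher, against 7.77% of all genes higher and 15.7% in either direction. At 10 h 1 of 8 passed, against 5.07% higher and 9.14% in either direction. The duplicates of treated and untreated cells did not overlap for 6 of 8 members at 1 h (34.8% of all genes), 8 at 3 h (51.2%), 5 at 6 h (51.4%) and 5 at 10 h (50.4%). The median member differed by 0.07, 0.04, 0.12 and 0.10 at 1, 3, 6 and 10 h, beside −0.01, −0.02, −0.03 and 0 for all genes (log2). RNA came from whole cultures, so fewer cells of a kind and less RNA per cell cannot be told apart.

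**Figure D1:**
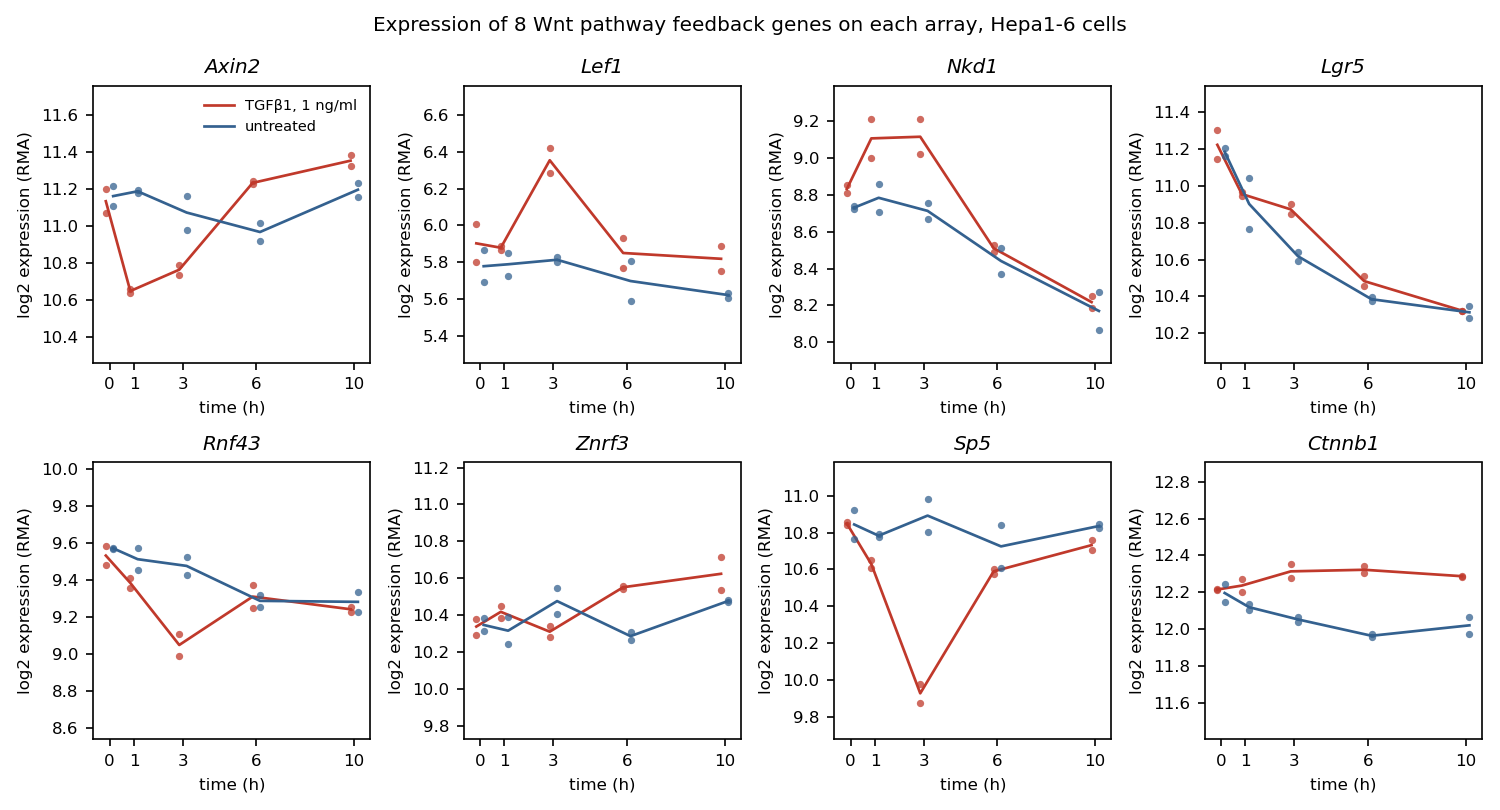
Log2 expression (RMA, vertical axis) of the 8 measured genes against time in hours; points are single arrays, lines join the means of the duplicates, treated cells in red and untreated cells in blue. Every panel spans the same log2 range around its own level. Sp5 dipped at 3 h in treated cells (9.88 and 9.98, against 10.80 and 10.98 in untreated cells), and Lgr5 declined in both groups.

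Sp5, a zinc finger repressor of the Sp family and a direct target of Wnt signalling, showed the largest difference among the members. Treated cells gave Sp5 values of 10.86 and 10.84 at 0 h, 10.65 and 10.61 at 1 h, 9.88 and 9.98 at 3 h, 10.60 and 10.57 at 6 h, and 10.76 and 10.70 at 10 h (log2). Untreated cells gave Sp5 values of 10.76 and 10.92 at 0 h, 10.79 and 10.77 at 1 h, 10.80 and 10.98 at 3 h, 10.61 and 10.84 at 6 h, and 10.83 and 10.85 at 10 h. Both treated arrays lay below both untreated arrays at 1, 3, 6 and 10 h, at 6 h only just (10.60 against 10.61), and the gap was far widest at 3 h. There the difference was −0.96 ± 0.07 (SE), with a 95% confidence interval from −1.11 to −0.82 and a limma adjusted p of 9.97e-10. At 1, 6 and 10 h the differences of −0.15, −0.14 and −0.10 did not pass. The effect at 3 h was lower than that at 1 h by a difference of −0.81 ± 0.10 (limma, adjusted p = 8.62e-06), and the effect at 6 h was higher than that at 3 h by 0.83 ± 0.10 (limma, adjusted p = 2.76e-05). Without untreated replicate 1 the 6 h difference passed too, at −0.25 (limma, adjusted p = 0.0252).

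A promoter window is shown for each of the 3 genes that were lower together at 3 h, Sp5, Axin2 and Rnf43. A window is also shown for Lef1, which was higher. Each line gives the 250 bases upstream of an annotated start, 5′ to 3′ on the plus strand, from RefSeq on GRCm38.p6, with the TCF/LEF core motif CTTTGA or its reverse complement TCAAAG in capitals. The windows lie at chr2:70474673-70474922 for Sp5, chr11:108920099-108920348 for Axin2, chr11:87662837-87663086 for the first start of Rnf43 and chr3:131156044-131156293 for the fourth start of Lef1.
Sp5: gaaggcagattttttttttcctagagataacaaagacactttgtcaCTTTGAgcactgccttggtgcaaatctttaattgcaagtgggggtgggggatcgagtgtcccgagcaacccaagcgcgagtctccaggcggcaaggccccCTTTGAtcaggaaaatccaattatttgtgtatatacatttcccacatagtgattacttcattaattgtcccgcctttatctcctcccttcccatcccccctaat
Axin2: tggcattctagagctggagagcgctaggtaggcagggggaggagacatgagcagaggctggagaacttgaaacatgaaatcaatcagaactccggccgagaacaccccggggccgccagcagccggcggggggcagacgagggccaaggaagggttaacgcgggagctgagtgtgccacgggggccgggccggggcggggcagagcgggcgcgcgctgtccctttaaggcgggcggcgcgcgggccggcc
Rnf43: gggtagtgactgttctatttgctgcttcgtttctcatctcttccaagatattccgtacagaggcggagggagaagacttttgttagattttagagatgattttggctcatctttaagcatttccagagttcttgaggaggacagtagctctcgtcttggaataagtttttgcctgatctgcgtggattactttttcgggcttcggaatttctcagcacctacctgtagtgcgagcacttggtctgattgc
Lef1: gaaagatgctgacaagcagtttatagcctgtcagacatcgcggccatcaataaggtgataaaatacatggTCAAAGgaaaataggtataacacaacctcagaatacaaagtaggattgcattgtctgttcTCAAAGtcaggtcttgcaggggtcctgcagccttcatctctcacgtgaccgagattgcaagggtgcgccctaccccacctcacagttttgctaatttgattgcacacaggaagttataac
The Sp5 window holds the core 2 times on the plus strand, from −204 to −199 and from −104 to −99 relative to the start. The Lef1 window holds it 2 times on the minus strand, from −180 to −175 and from −120 to −115. These were the 2 of 11 windows with the core among the 6 members with a RefSeq window (Axin2, Lef1, Nkd1, Rnf43, Sp5 and Ctnnb1). Of all 32851 windows of that length, 13.8% hold it on either strand. The Lef1 window printed here, that of start 4, is its only window with the core. The windows of starts 1, 2 and 3 of Lef1 and start 2 of Rnf43 are not printed and hold the core 0 times. The pentamer CAGAC, the letters of a SMAD binding element, or its reverse complement GTCTG was in 7 of the 11 windows and in 42.2% of all windows. The 11 windows are not independent: those of the first and second starts of Lef1 overlap, and the same CAGAC site counts in both. The windows of the first and second starts of Ctnnb1 overlap as well. CAGAC or GTCTG was in the Axin2, Rnf43 and Lef1 windows printed here and not in that of Sp5. A match is only a match of letters, and a window without one shows only that these letters are not in it.

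Axin2, the destruction complex scaffold that is among the most used readouts of Wnt signalling, was lower first and higher later. Treated cells gave Axin2 values of 11.07 and 11.20 at 0 h, 10.64 and 10.66 at 1 h, 10.74 and 10.79 at 3 h, 11.24 and 11.23 at 6 h, and 11.38 and 11.33 at 10 h. Untreated cells gave Axin2 values of 11.11 and 11.22 at 0 h, 11.18 and 11.20 at 1 h, 11.17 and 10.98 at 3 h, 10.92 and 11.02 at 6 h, and 11.16 and 11.23 at 10 h. The groups did not overlap at 1, 3, 6 or 10 h, with treated arrays below at 1 and 3 h and above at 6 and 10 h. At 1 h it was 1.46-fold lower (−0.54 ± 0.06, SE; limma, adjusted p = 2.01e-06), and at 3 h the difference was −0.31 (limma, adjusted p = 0.00062). At 6 h it was 1.2-fold higher (0.27; limma, adjusted p = 0.00266), and at 10 h the difference of 0.16 did not pass (95% confidence interval 0.03 to 0.28; limma, adjusted p = 0.115). The effect at 6 h exceeded that at 3 h by 0.58 ± 0.08 (limma, adjusted p = 0.000254) and the effect at 10 h that at 1 h by 0.70 ± 0.08 (limma, adjusted p = 1.16e-05). With the mean of its 2 probe sets the calls at 1, 3 and 6 h were lost (adjusted p = 0.262, 0.886 and 0.177), as were those of both changes (0.450 and 0.103), and without untreated replicate 1 the 6 h call was lost at 0.0541 (limma). The second probe set, 1421341_at, was below the array median on 10 of 20 arrays and differed by −0.22, 0.20, 0.34 and 0.33 at the 4 times, none past the threshold.

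Nkd1, the Dishevelled-binding inhibitor, was higher in treated cells early on. Treated cells gave Nkd1 values of 8.85 and 8.81 at 0 h, 9.0 and 9.21 at 1 h, 9.21 and 9.02 at 3 h, 8.49 and 8.53 at 6 h, and 8.19 and 8.25 at 10 h. Untreated cells gave Nkd1 values of 8.72 and 8.74 at 0 h, 8.71 and 8.86 at 1 h, 8.67 and 8.76 at 3 h, 8.51 and 8.37 at 6 h, and 8.27 and 8.07 at 10 h. Treated arrays lay above untreated arrays at 1 and 3 h, overlapped them at 6 and 10 h, and both groups declined after 3 h. They also lay above at 0 h, by 0.10, where the groups are described as equivalent. The difference was 0.40 at 3 h (1.32-fold; limma, adjusted p = 0.00157) and 0.32 ± 0.08 (SE) at 1 h (1.25-fold; limma, adjusted p = 0.0473). At 6 and 10 h it was 0.07 and 0.05 and did not pass. The 1 h call was lost under 9 of 14 alternatives, with an adjusted p of 0.472 without treated replicate 2 and 0.385 without untreated replicate 1 (limma). The 3 h call was lost at 0.0507 without treated replicate 1 and at 0.116 with the mean of the 4 probe sets of Nkd1. Of its other probe sets, 1417278_a_at differed by 0.22, 0.27, −0.11 and −0.28 at the 4 times and passed at none.

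Rnf43, one of the pair of membrane ubiquitin ligases, was lower in treated cells at 3 h. Treated cells gave Rnf43 values of 9.48 and 9.58 at 0 h, 9.41 and 9.36 at 1 h, 8.99 and 9.11 at 3 h, 9.37 and 9.25 at 6 h, and 9.23 and 9.25 at 10 h. Untreated cells gave Rnf43 values of 9.57 and 9.57 at 0 h, 9.45 and 9.57 at 1 h, 9.53 and 9.43 at 3 h, 9.32 and 9.25 at 6 h, and 9.23 and 9.34 at 10 h. At 3 h both treated arrays lay below both untreated arrays by a wide margin, and at 6 and 10 h the groups ran together. The 3 h difference was −0.43 ± 0.06 (SE; limma, adjusted p = 4.47e-05), and it kept its call under every alternative that was run. Rnf43 has a single probe set, so the mean of the probe sets could not change this difference. The differences at 1, 6 and 10 h, −0.13, 0.02 and −0.04, did not pass. The effect at 6 h was higher than that at 3 h by 0.45 ± 0.09 (limma, adjusted p = 0.00543).

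Znrf3, the partner ligase of Rnf43, passed only at 6 h, where its brightest probe set was higher in treated cells. Treated cells gave Znrf3 values of 10.29 and 10.38 at 0 h, 10.45 and 10.38 at 1 h, 10.28 and 10.34 at 3 h, 10.56 and 10.54 at 6 h, and 10.71 and 10.53 at 10 h. Untreated cells gave Znrf3 values of 10.31 and 10.38 at 0 h, 10.39 and 10.24 at 1 h, 10.55 and 10.41 at 3 h, 10.31 and 10.26 at 6 h, and 10.47 and 10.48 at 10 h. Treated arrays lay below untreated arrays at 3 h and above them at 6 and 10 h. The 6 h difference was 0.27 ± 0.06 (SE; 1.2-fold; limma, adjusted p = 0.00486), and that at 3 h was −0.17 (95% confidence interval −0.30 to −0.03; limma, adjusted p = 0.0880). The effect at 6 h exceeded that at 3 h by 0.43 ± 0.09 (limma, adjusted p = 0.00623). The second probe set, 1437646_at, went the other way, at 0.32 at 3 h and −0.29 at 6 h, and passed at neither time. With the mean of both probe sets the 6 h difference was −0.01 and the change from 3 to 6 h −0.09, and without the variance trend that change missed the threshold (limma, adjusted p = 0.0594). Without untreated replicate 2 the 6 h call was lost at an adjusted p of 0.0518 while the 3 h difference passed at 0.0464 (limma).

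Lgr5, the R-spondin receptor, declined with time in both groups. Treated cells gave Lgr5 values of 11.14 and 11.30 at 0 h, 10.94 and 10.97 at 1 h, 10.84 and 10.90 at 3 h, 10.46 and 10.51 at 6 h, and 10.32 and 10.32 at 10 h. Untreated cells gave Lgr5 values of 11.16 and 11.21 at 0 h, 10.76 and 11.04 at 1 h, 10.59 and 10.64 at 3 h, 10.37 and 10.40 at 6 h, and 10.28 and 10.35 at 10 h. The decline was ahead in untreated cells at 3 h, where both treated arrays lay above both untreated arrays, and the groups met at 10 h. The 3 h difference was 0.25 ± 0.07 (SE; limma, adjusted p = 0.00941). The call was lost without treated replicate 2 (0.0892), without untreated replicate 1 (0.0885), without the variance trend (0.056) and with the mean of both probe sets (0.395; limma, adjusted p in each case). At 1, 6 and 10 h the differences were 0.05, 0.10 and 0.01, with a 95% confidence interval from −0.13 to 0.15 at 10 h. Set against untreated cells at 0 h, Lgr5 fell by 0.31 at 3 h, 0.70 at 6 h and 0.86 at 10 h in treated cells (limma, adjusted p = 0.00162, 5.58e-08 and 2.72e-09). In untreated cells it fell by 0.57, 0.80 and 0.87 at the same times (limma, adjusted p = 1.13e-05, 3.21e-08 and 3.58e-09), and these 6 comparisons share the untreated 0 h arrays.

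Lef1, the TCF/LEF factor, was higher in treated cells at 3 h, and its mean level lay below the median of all genes. Treated cells gave Lef1 values of 6.01 and 5.80 at 0 h, 5.89 and 5.87 at 1 h, 6.29 and 6.42 at 3 h, 5.77 and 5.93 at 6 h, and 5.75 and 5.89 at 10 h. Untreated cells gave Lef1 values of 5.69 and 5.87 at 0 h, 5.73 and 5.85 at 1 h, 5.80 and 5.83 at 3 h, 5.59 and 5.81 at 6 h, and 5.64 and 5.61 at 10 h. The 3 h arrays of treated cells were its highest values of the series, and the groups overlapped at 0 and 6 h but not at 1, 3 or 10 h. The difference at 3 h was 0.54 ± 0.12 (SE; limma, adjusted p = 0.00339), with no pass at 1, 6 or 10 h (0.09, 0.15 and 0.20). Without treated replicate 2 the 3 h call was lost at an adjusted p of 0.0525 (limma). The change of the effect from 1 to 3 h, 0.45, and from 3 to 6 h, −0.39, did not pass either (limma, adjusted p = 0.159 and 0.271). The second probe set, 1421299_a_at, lay below the array median on 20 of 20 arrays and passed at none of the 4 times.

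Ctnnb1, which encodes β-catenin, was the member with a lasting difference. Treated cells gave Ctnnb1 values of 12.22 and 12.22 at 0 h, 12.27 and 12.20 at 1 h, 12.35 and 12.28 at 3 h, 12.30 and 12.34 at 6 h, and 12.29 and 12.28 at 10 h. Untreated cells gave Ctnnb1 values of 12.24 and 12.15 at 0 h, 12.10 and 12.14 at 1 h, 12.07 and 12.04 at 3 h, 11.97 and 11.96 at 6 h, and 12.07 and 11.98 at 10 h. Treated arrays lay above untreated arrays at 1, 3, 6 and 10 h. The differences were 0.26 ± 0.04 at 3 h, 0.36 ± 0.04 at 6 h and 0.27 ± 0.04 at 10 h (SE; limma, adjusted p = 0.000152, 3.27e-06 and 0.000293), and 0.12 at 1 h did not pass. The level in treated cells stayed near that of untreated cells at 0 h, at 0.12, 0.13 and 0.09 above it at 3, 6 and 10 h, of which the 6 h value passed (limma, adjusted p = 0.0391). In untreated cells Ctnnb1 was below its 0 h level by −0.14, −0.23 and −0.18 (limma, adjusted p = 0.0457, 0.000491 and 0.00400). The call at 3 h in untreated cells was lost in 8 of 14 alternatives. All 3 probe sets were higher in treated cells at 3, 6 and 10 h: 1450008_a_at by 0.49, 0.41 and 0.32 and 1430533_a_at by 0.62, 0.41 and 0.47, each past the threshold over all probe sets.

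**Figure D2:**
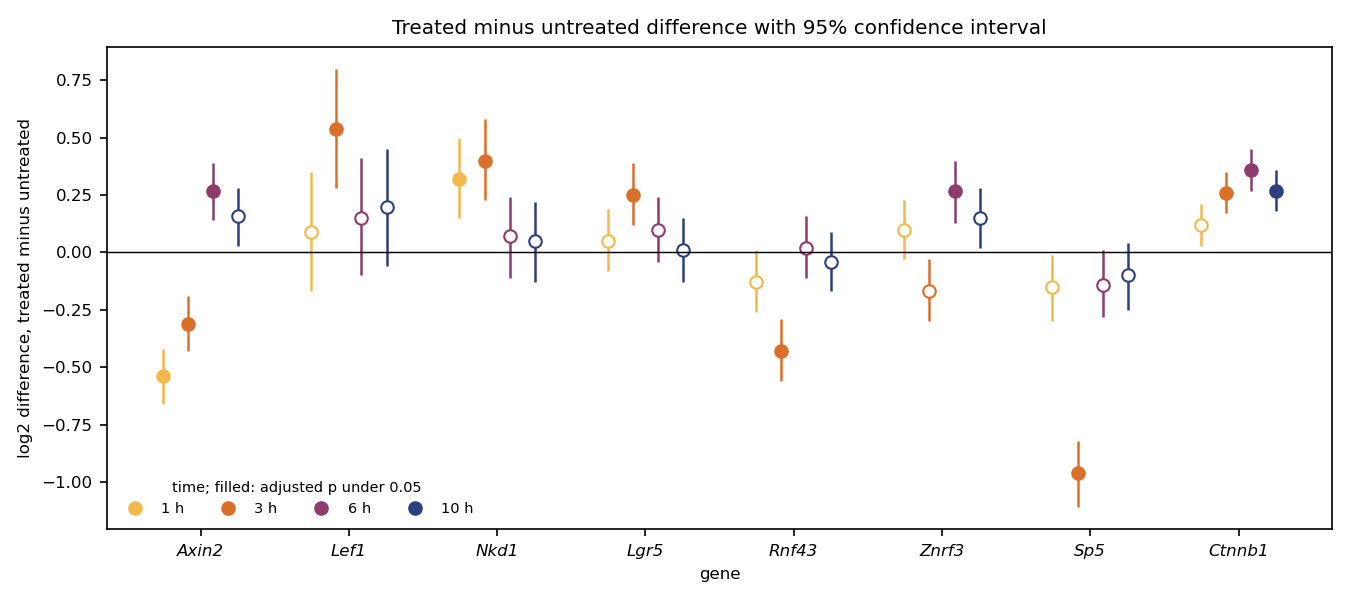
Log2 difference of treated minus untreated cells (vertical axis) for each gene at 1, 3, 6 and 10 h, with 95% confidence intervals from limma; filled points have an adjusted p under 0.05. Sp5 at 3 h, at −0.96, is the lowest point, and the 4 intervals of Ctnnb1 all lie above 0.

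Over the 4 times together, the mean difference passed for 7 of 8 members, 4 higher and 3 lower, while 10.9% of all genes were higher and 11.6% lower, 22.5% in all. It was −0.34 ± 0.03 for Sp5, −0.14 for Rnf43 and −0.11 ± 0.03 for Axin2, and 0.25 ± 0.02 for Ctnnb1, 0.24 ± 0.06 for Lef1, 0.21 ± 0.04 for Nkd1 and 0.10 for Lgr5 (SE; log2). The mean for Axin2 joins values of both signs, and with the mean of its probe sets it was 0.03; that for Nkd1 was then 0.02. The call of Lgr5 was lost without any 1 of 6 arrays (limma, adjusted p from 0.0501 to 0.0697). Znrf3 had a mean of 0.09 that narrowly missed the threshold (limma, adjusted p = 0.0522) and passed without any 1 of 4 arrays (lowest adjusted p = 0.0130).

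The effect changed between 3 and 6 h for 4 of 8 members, Axin2, Rnf43, Znrf3 and Sp5, each toward higher values in treated cells, against 2.86% of all genes upward and 4.55% in either direction. It changed between 1 and 3 h for 1 of 8, Sp5 (6.41% of all genes), and between 1 and 10 h for 1 of 8, Axin2 (4.02%). Between 6 and 10 h 0 of 8 passed by limma, and 0 had an unadjusted p under 0.05 (2.44% of all genes passed). By their brightest probe sets, Nkd1, Lgr5, Lef1 and Ctnnb1 passed at none of these changes. Another probe set of Ctnnb1, 1450008_a_at, did pass between 1 and 3 h, at 0.41 (limma, adjusted p = 0.00939). The change of Lgr5 between 1 and 3 h passed without untreated 1 h replicate 1, at 0.34 (limma, adjusted p = 0.0103).

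Without TGFβ1, 4 of 8 members were lower at 10 h than at 0 h, where 26.1% of all genes passed in either direction and 12.8% were lower. Lgr5 was 1.83-fold lower (−0.87 ± 0.07, SE; limma, adjusted p = 3.58e-09), Nkd1 1.47-fold lower (−0.56 ± 0.08, SE; limma, adjusted p = 2.76e-05) and Rnf43 and Ctnnb1 by −0.29 and −0.18. At 6 h 5 of 8 were lower (10.3% of all genes lower, 20.7% in either direction), namely Lgr5, Nkd1 (−0.29), Rnf43 (−0.28), Ctnnb1 and Axin2 (−0.19; limma, adjusted p = 0.0216). At 3 h 2 of 8 were lower, Lgr5 and Ctnnb1 (3.21% of all genes lower, 8.16% in either direction), and at 1 h 0 of 8 by limma with 1 at an unadjusted p under 0.05 (0.187%). Sp5, Znrf3 and Lef1 passed at none of these times. The 6 h calls of Nkd1 and Axin2 rested on single arrays: without replicate 1 or 2 of a group the adjusted p reached 0.180 for Nkd1 and 0.232 for Axin2 (limma). The 10 h call of Ctnnb1 was lost without untreated 0 h replicate 1 (0.0913) or untreated 10 h replicate 2 (0.0901; limma, adjusted p). With the mean of its 4 probe sets Nkd1 differed by −0.01 at 10 h in untreated cells.

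**Figure D3:**
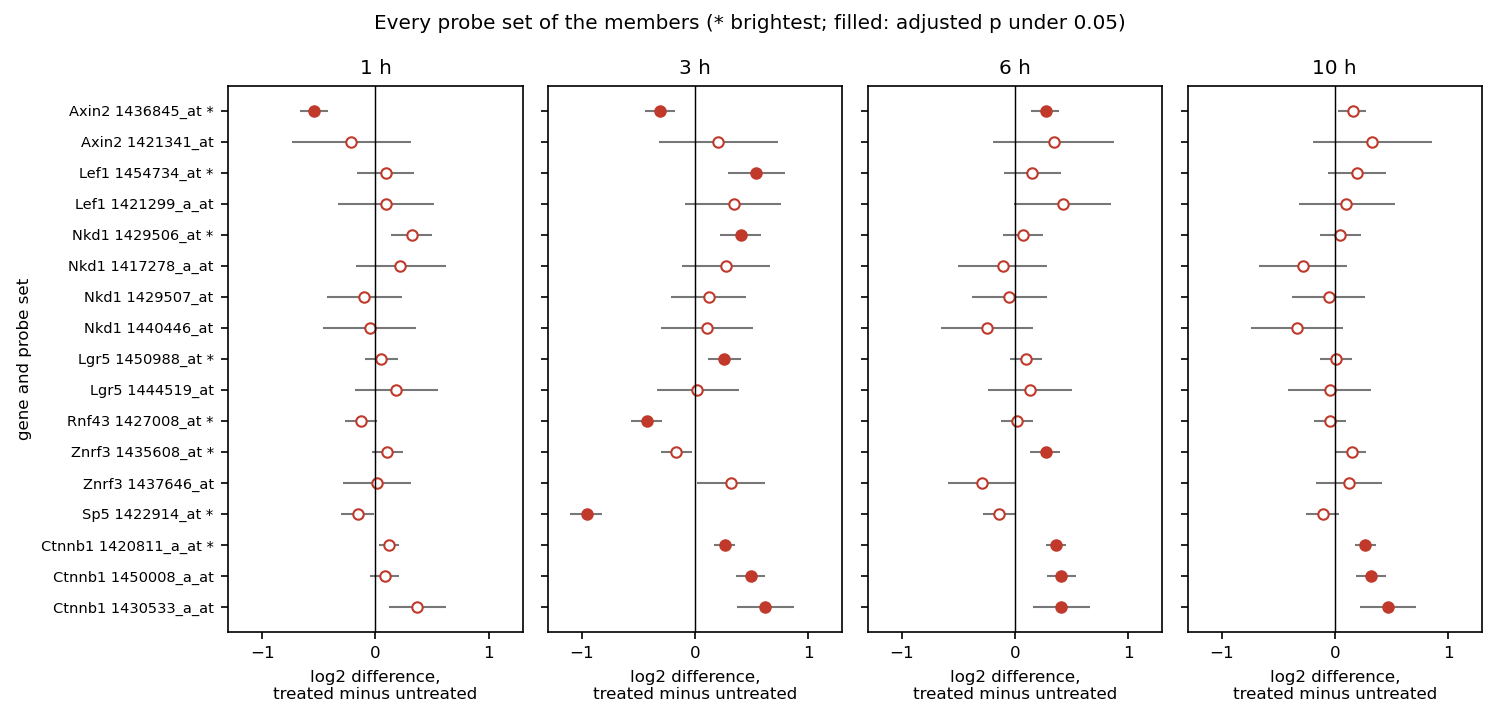
Log2 difference of treated minus untreated cells (horizontal axis) for each of the 17 probe sets at 1, 3, 6 and 10 h, with 95% confidence intervals; filled points have an adjusted p under 0.05 over all 45037 probe sets, and an asterisk marks the brightest probe set of a gene. The 3 probe sets of Ctnnb1 lie to the right of 0 at 3, 6 and 10 h, while those of Znrf3 lie on opposite sides of 0 at 3 and 6 h.

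Tested one by one, 1 of 17 probe sets passed at 1 h (1.47% of all probe sets), 9 at 3 h (9.03%), 5 at 6 h (8.96%) and 3 at 10 h (4.57%). Of the 9 at 3 h, 6 were higher and 3 lower. Outside Ctnnb1, each probe set that passed at these times was the brightest of its gene. The other probe sets of Axin2, Nkd1 and Lgr5 lay near or below the array medians on many arrays, except 1417278_a_at of Nkd1. Levels of different probe sets are not on 1 scale and were not compared.

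Of the 105 other genes of the pathway in 9 lists, 104 were measured. At 1 h 6 were higher and 2 lower, at 3 h 12 and 11, at 6 h 20 and 8, and at 10 h 7 and 4, with list medians of 0, −0.03, 0.01 and 0.02 beside −0.01, −0.02, −0.03 and 0 for all genes. Of all genes, 2.24%, 15.3%, 15.7% and 9.14% passed in either direction at these times, and 7.77% were higher at 6 h. These shares are the background for the counts of each list below, markers included. The difference at the ligand and receptor end was uneven. Of 19 Wnt ligand genes 1 was higher at 1 h, Wnt10a, by 0.81 (7.27 ± 0.03 in treated and 6.46 ± 0.03 in untreated cells, SD, n = 2; limma, adjusted p = 0.00515). Its calls at 1, 3 and 6 h were each lost without 1 array, with adjusted p up to 0.0579, 0.0757 and 0.265 (limma). Wnt8a, far below the array medians at 3.83 ± 0.28 in treated and 4.53 ± 0.04 in untreated cells, was lower at 3 h and Wnt6 at 6 h by −0.21, and both calls were lost without single arrays (adjusted p up to 0.136 and 0.162; limma).

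Among 15 receptors and coreceptors, 3 were higher and 2 lower at 3 h. Fzd5, a Frizzled receptor, was 2.21-fold lower at 3 h (7.31 ± 0.05 in treated and 8.45 ± 0.03 in untreated cells, SD, n = 2; limma, adjusted p = 2.05e-09) and did not pass at 1, 6 or 10 h (−0.18, −0.04 and −0.10). Ror1, a receptor for noncanonical Wnt ligands, was higher by 0.72 at 3 h and 0.82 at 6 h, and at 6 h the mean of its probe sets differed by 0.35 and did not pass (limma, adjusted p = 0.0707). Fzd1 was higher by 0.34, 0.43 and 0.61 at 3, 6 and 10 h, and lost these calls with the mean of its probe sets (adjusted p = 0.0753, 0.0653 and 0.296; limma). Of the 6 R-spondins and their receptors, Lgr4, the paralog of Lgr5, was lower at 6 and 10 h (−0.20 and −0.25), with adjusted p up to 0.25 and 0.232 without 1 array (limma). Of 15 antagonists, Notum, the deacylase that inactivates Wnt ligands and is a target of the pathway, was higher by 0.43 at 3 h and lower by −0.47 at 10 h (limma, adjusted p = 0.000800 and 0.000663). Apcdd1 was lower at 1 h, −0.53, but by the mean of its probe sets it differed by 0.02.

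Of 11 destruction complex genes, 1, 2, 3 and 2 were higher at 1, 3, 6 and 10 h. Csnk1e, a casein kinase that phosphorylates pathway components, was higher at each of these times, by 0.39, 0.94, 0.49 and 0.32, and at 3 h it measured 10.71 ± 0.04 in treated and 9.76 ± 0.02 in untreated cells (SD, n = 2; limma, adjusted p = 3.33e-11). Its 10 h call was lost with the mean of its probe sets (limma, adjusted p = 0.0748). Fbxw11, a ubiquitin ligase subunit that recognises phosphorylated β-catenin, was higher by 0.27, 0.17 and 0.14 at 3, 6 and 10 h, with the 6 and 10 h calls lost without single arrays (adjusted p up to 0.162 and 0.227; limma) or with the mean of its probe sets (0.196 and 0.539). Gsk3b, higher by 0.24 at 6 h, reached an adjusted p of 0.319 without 1 array and 0.489 with the mean of its probe sets (limma). Of 7 Dishevelled genes and regulators, Dvl1 was lower at 3 and 6 h, by −0.23 and −0.36.

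The corepressor genes of the Groucho family split. At 3 h Tle1 and Tle4, whose products hold TCF/LEF targets silent, were lower by −0.67 and −0.64 (limma, adjusted p = 1.42e-06 and 7.95e-08), and Tle3, of the same family, was higher by 0.50 (limma, adjusted p = 0.000167). Tle3 remained higher at 10 h (0.47), while Tle1 and Tle4 differed by 0.13 and 0.04 and did not pass. The 6 h call of Tle4, −0.19, was lost without single arrays (limma, adjusted p up to 0.193). Of 12 nuclear partners in all, 3 were higher and 2 lower at 3 h, and 4 and 2 at 6 h.

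Targets outside the feedback group did not move as 1 block. Of 10 other targets, 3 were higher and 1 lower at 1 h, 1 and 2 at 3 h, 5 and 1 at 6 h. Myc was lower by −1.18 at 1 h and higher by 0.48 and 0.56 at 6 and 10 h. Sox9 was higher by 1.13, 0.47 and 0.43 at 1, 3 and 6 h, and Fosl1, an AP-1 gene, was higher by 0.51 at 1 h and lower by −0.85 and −0.87 at 3 and 6 h. The 1 h call of Fosl1 was lost with the mean of its probe sets, at 0.38 (limma, adjusted p = 0.106). Of 9 targets known from pericentral hepatocytes, 1 was higher at 1 h, 1 was higher and 3 lower at 3 h, 3 were higher and 2 lower at 6 h, and 2 were lower at 10 h. Oat, an enzyme of ornithine metabolism, was lower by −0.27, −0.40 and −0.35 at 3, 6 and 10 h, and Slc1a2, a glutamate transporter, by −0.36, −0.79 and −0.44. The 3 and 10 h calls of Oat and Slc1a2 were lost without single arrays, with adjusted p up to 0.213 and 0.0626 for Oat and 0.276 and 0.140 for Slc1a2 (limma). Slc1a2 differed by −0.06 at 10 h with the mean of its probe sets (limma, adjusted p = 0.815). Tbx3 was higher at 1 h (0.47) and, less firmly, at 6 h (0.26; limma, adjusted p up to 0.168 without 1 array and 0.222 with the mean of its probe sets).

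**Figure D4:**
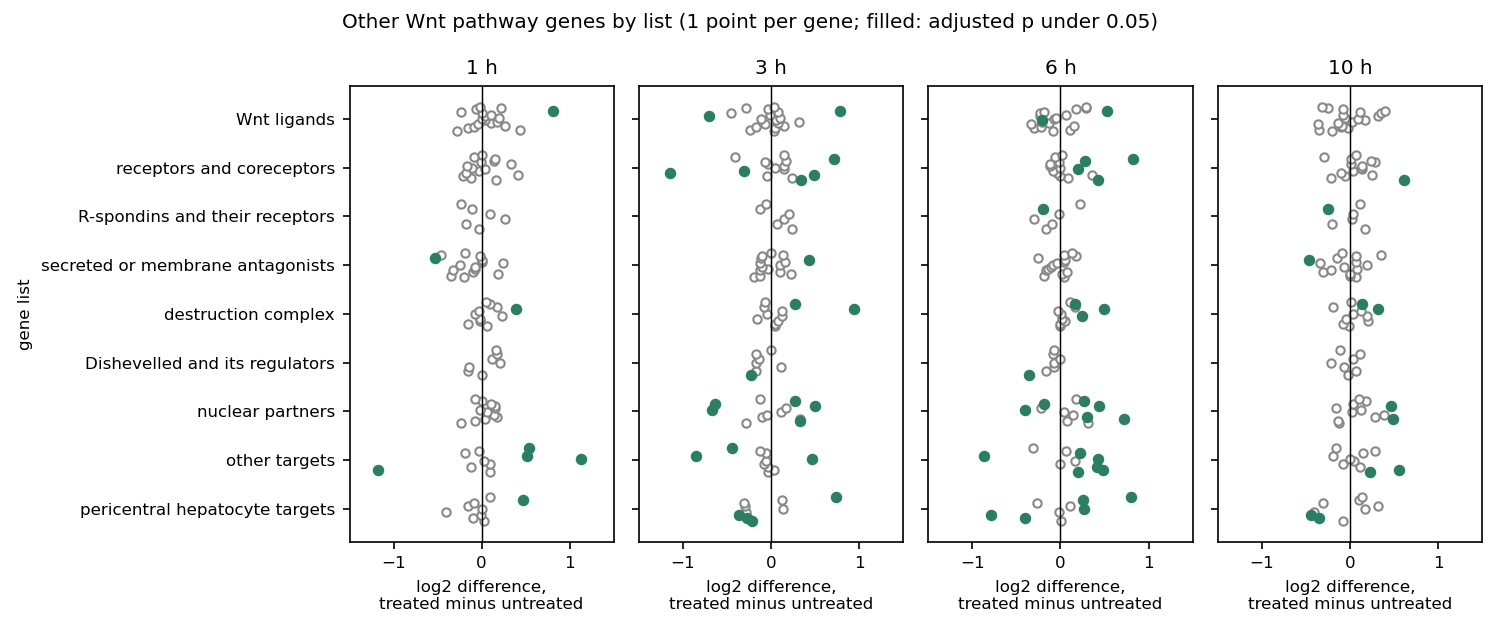
Log2 difference of treated minus untreated cells (horizontal axis) for the 104 other measured pathway genes, 1 point per gene, by list (vertical axis) at 1, 3, 6 and 10 h; filled points have an adjusted p under 0.05. Most genes of each list lie near 0, with Fzd5 at −1.15 and Csnk1e at 0.94 at 3 h among the farthest.

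Markers of liver cell types moved with the treatment as well. Of the 3 cholangiocyte markers 2 were higher at 3, 6 and 10 h, and their mean level on an array was 9.05 to 9.25 in treated and 8.85 to 9.04 in untreated cells at 3 h. Of the 8 hepatocyte markers 1 was lower at 1 h. Their mean levels were then 9.41 to 9.53 in treated and 9.38 to 9.48 in untreated cells. At 3 h 2 hepatocyte markers were higher and 1 lower, with 9.54 to 9.56 in treated and 9.42 to 9.56 in untreated cells. At 6 h 1 of the hepatocyte markers was higher and 3 lower, with 9.42 to 9.44 in treated and 9.60 to 9.62 in untreated cells, and at 10 h 1 was higher and 2 lower, with 9.43 to 9.45 in treated and 9.55 to 9.64 in untreated cells. Of the 4 stellate markers 1 was higher at 3 h, at 5.13 to 5.24 in treated and 4.88 to 4.92 in untreated cells, and 2 were higher at 6 h, at 5.04 to 5.23 in treated and 4.77 to 4.81 in untreated cells. At 10 h 1 stellate marker was higher, at 4.75 to 4.99 in treated and 4.72 to 4.78 in untreated cells. Of the endothelial and macrophage markers, 4 each, 0 passed at 1, 3, 6 or 10 h by limma, and 1 endothelial marker at 10 h and 1 macrophage marker at 6 h had an unadjusted p under 0.05. The part of these differences in those of the Wnt genes was not tested.

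Sp5 had the largest moderated F statistic of the members over the 4 differences, 52.8, which ranked it 352nd of 18193 genes, before Ctnnb1 (37.2, ranked 547th) and Axin2 (34.9, ranked 576th). Rnf43, Nkd1, Znrf3, Lef1 and Lgr5 followed at 12.2, 9.62, 8.19, 5.97 and 4.47. Among 9096 genes at or above the median level, those whose means over the 10 groups ran most like Sp5 were Rassf6, Plcxd2, Foxa2, Rab20 and Akap1, with Pearson correlations of 0.966, 0.957, 0.954, 0.951 and 0.948. Their differences at 3 h were −1.28, −0.97, −1.28, −1.58 and −0.82. That all are negative follows largely from the choice, since Sp5 was lowest at 3 h in treated cells. These genes share the arrays and the normalization with Sp5, and the likeness is a description.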

How the data were processed

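RNA of 20 Hepa1-6 cultures was measured on 1 Affymetrix array each. The authors deposited 1 log2 expression value per probe set and array, made with RMA per the submitters' processing notes. Which RMA version, chip description file and build were used is not given in the sources used here. Differences of dim probe sets are compressed by RMA, and quantile normalization makes every difference relative to the other transcripts. No detection calls were used, and with 2 arrays per group the number of arrays limits precision (median standard error of a difference 0.13).

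The platform annotation gave 1 gene for 34945 probe sets, several for 932 and none for 9160, and the last 2 kinds were left out of gene tests. Each gene was represented by its brightest probe set. limma 3.58.1 in R 4.3.3 was fitted to all 20 arrays with 1 mean per group (10 residual degrees of freedom, variance trend), with Benjamini-Hochberg adjustment over 18193 genes, or 45037 probe sets, within each comparison, with 0.05 as the threshold. Rose, fell, higher and lower refer to untreated cells of the same time unless 0 h is named. An error marked SE is a standard error and one marked SD is the standard deviation of 2 arrays. Folds are back-transformed log2 differences. The duplicates are biological per the labels, but nothing says more of how they were kept apart.

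The members, the lists of other pathway genes and markers, and the rule for named genes (every member, and up to 3 called genes per list, lowest adjusted p first) were chosen with earlier results of these data known. Of the list genes analysed, 2 had no probe set of their own. Motifs were searched on both strands of RefSeq windows of 250 bases. The fit was tested on simulated data. Alternatives covered the choice of probe sets, normalization, a filter on level, the variance model, array weights, the arrays fitted, the control, a replicate block and leaving out each array.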

Additional observations from a re-analysis of the deposited data

Results flagged for a closer look

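For 4 members the treatment effect differed between times by a test of the difference itself (limma, 2 arrays per group, effects in log2 of treated minus untreated cells). The effect on Sp5 changed by −0.81 between 1 and 3 h and by 0.83 between 3 and 6 h. The effect on Axin2 changed by 0.58 between 3 and 6 h and by 0.70 between 1 and 10 h, with negative differences at 1 and 3 h and positive ones at 6 and 10 h. The effect on Rnf43 changed by 0.45 and that on Znrf3 by 0.43 between 3 and 6 h. With the mean of both probe sets of Znrf3 its change was −0.09. With the mean of both probe sets of Axin2 its 2 changes lost their call (limma, adjusted p = 0.450 and 0.103).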

How the results depend on the processing

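Of 37 calls of single members, 18 kept direction and side of the threshold under every alternative run with the same control; over all 611 alternatives, 549 kept both, 57 lost the call and 5 changed sign. Another 62 calls were of the other pathway genes named above and of Smad7, Skil and Klf10, which served as checks of the treatment. Of these 62 calls, 38 were kept, and over their 866 alternatives 91 lost the call and 7 changed sign. All of these changes were in pathway genes, so the share kept is lower for the pathway genes alone. Sp5 and Rnf43 have a single probe set each, so the mean of the probe sets could not change their differences. Their kept calls are therefore no measure of how they stand beside members with several probe sets. Counts below are of 8 members. With the mean of the probe sets of a gene, 0 members passed at 1 h (2 otherwise), 4 at 3 h (7), 1 at 6 h (3), 4 in the mean effect (7), 3 in changes between times (6) and 3 in untreated cells at 6 h (5). That setting gave 0.03 for the mean effect on Axin2, −0.01 for Znrf3 at 6 h and −0.09 for its change from 3 to 6 h, 0.11 for Nkd1 in untreated cells at 6 h and 0.02 for Apcdd1 at 1 h. The 1 h count was 1 with array weights, centring on medians, every probe set tested, a further quantile normalization, no variance trend and only the arrays compared. All of these but array weights gave 1 in untreated cells at 3 h (2 otherwise), and no variance trend gave 3 there at 6 h. At 10 h only the arrays compared gave 2 (1 otherwise). With untreated 0 h cells as control, 5 members passed at 6 h and 5 at 10 h. Lgr5 then differed by −0.31, −0.70 and −0.86 at 3, 6 and 10 h, Nkd1 by −0.51 at 10 h, Rnf43 by −0.26 at 6 h, Dvl1 by 0.02 at 3 h and 0.02 at 6 h, Slc1a2 by 0.11 at 3 h and 0.71 at 10 h, Tle1 by 0.29 at 6 h and Tle3 by −0.15 at 10 h. Both 0 h groups as the start gave 1 member in untreated cells at 1 h (0 otherwise). The cause of these changes was not tested.

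Leaving out 1 array at a time gave 1 to 2 members at 1 h, 5 to 8 at 3 h, 2 to 3 at 6 h, 1 to 1 at 10 h, 0 to 0 at 0 h, 6 to 8 in the mean effect and 6 to 8 in changes between times. In untreated cells it gave 0 to 1 at 1 h, 1 to 2 at 3 h, 3 to 5 at 6 h and 3 to 4 at 10 h. The lone array of a group was then assumed to vary like the other groups. Replicate numbers did not pair the samples: the deviations of same-numbered treated and untreated arrays correlated at 0.05, 0.082, −0.063, 0.093 and 0.003 at 0, 1, 3, 6 and 10 h. With the replicate number as a block, 2, 7, 3 and 1 members passed at 1, 3, 6 and 10 h, 8 in the mean effect, 6 in changes between times, and 1, 2, 5 and 4 in untreated cells. The member gained in untreated cells at 1 h was Lgr5, at −0.28 (limma, adjusted p = 0.0268). Members with differences near 0.2 on the log2 scale lie close to what 2 arrays per group can resolve, and the filter on level left Lef1 out.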
